A study of Caenorhabditis elegans with 6 samples.

Results

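Cuticle collagen genes were followed through small RNA libraries of adult Caenorhabditis elegans males that had or lacked the Piwi-class Argonaute PRG-1. Members were all protein-coding genes of the deposited transcript table named col- and a number (157 genes), together with 13 collagen genes known by their mutant shape: dpy-2, dpy-3, dpy-7, dpy-8, dpy-10, dpy-13, dpy-17, rol-6, sqt-1, sqt-2, sqt-3, bli-1 and bli-2. That gave 170 of 20222 protein-coding genes. The rule used gene names only, but it was chosen with earlier results of these data known. Small RNA came from whole males of 2 genotypes, wild type (3 libraries) and prg-1 null mutant (3 libraries), with no treatment named for either. Every library was made from 20 to 30 males grown at 25 °C and taken 24 h after the middle of the fourth larval stage. The labels name neither the wild type strain nor the prg-1 allele. They do not say whether the libraries of a genotype came from independent cultures, so the p-values below measure the spread between these libraries, which may in part be technical.

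The worm cuticle is a collagen matrix secreted by the epidermis and replaced at each moult. Cuticle collagens are short proteins with Gly-X-Y repeats that are modified and folded in the epidermal cells, trimmed by proteases and cross-linked outside them. Furrow collagens (DPY-2, DPY-3, DPY-7, DPY-8 and DPY-10) mark the annular grooves of the cuticle, BLI-1 and BLI-2 belong to the struts of the adult cuticle, and mutations in SQT-1 or ROL-6 can twist the body into a helix. In the germline, PRG-1 carries piRNAs to target transcripts, on which RNA-dependent RNA polymerases then make secondary siRNAs. These siRNAs, called 22G-RNAs, are antisense to the transcript, about 22 nt long and begin with G. For counting, an antisense read was a 22G-RNA if it had a length of 21 to 23 nt and G as its first base.

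Genome-aligned reads ranged from 973971 to 2205341 per library, and 22G reads on protein-coding genes from 69111 to 373032, with the third wild type library the shallowest. The targeted gene had 143, 441 and 88 antisense 22G reads in wild type against 7, 15 and 9 in prg-1 null. Their level fell by 5.09 ± 0.47 in log2 units (SE; edgeR adjusted p = 5.8e-09), and it separates the libraries as labelled, but siRNAs do not measure the prg-1 transcript. Levels below are in CPM, counts after TMM scaling for each 1000000 22G reads on tested genes, as mean ± SD over 3 libraries. Of 2879 genes tested, 357 (12.4%) were higher in prg-1 null and 938 (32.6%) lower at an edgeR adjusted p under 0.05. Scaling instead to genome-aligned reads moved the median log2 fold change of all tested genes from -0.11 to 0.44, with 578 genes then higher and 851 lower.

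Few collagens carried enough 22G-RNAs to be tested, and most of those tested differed between genotypes. Of the 170 genes, 81 had no 22G read in any library, 56 had 1 to 9 reads over the 6 libraries, and 33 had at least 10. The filter on low counts left 13 to test, or 7.65% of the collagens beside 14.2% of all protein-coding genes. Among these 13, 8 rose in prg-1 null, 3 fell and 2 did not pass the test, beside the 12.4% of tested genes that rose and the 32.6% that fell. In either direction that is 11 collagens, beside 45% of all tested genes, and the same number had an unadjusted p under 0.05, beside 49.3%. In 10 of the 13 the libraries of the 2 genotypes did not overlap, as for 55.1% of all tested genes. The median log2 fold change of the 13 was 3.39, also with the genes lacking prg-1 null reads at their bounds, against -0.11 for all tested genes. A collagen with few reads in 1 genotype could enter the test only through the other, so these counts describe the 13 genes and not the family. In whole animals, a different number of cells of a type and a different amount of RNA per cell cannot be told apart.

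**Figure D1:**
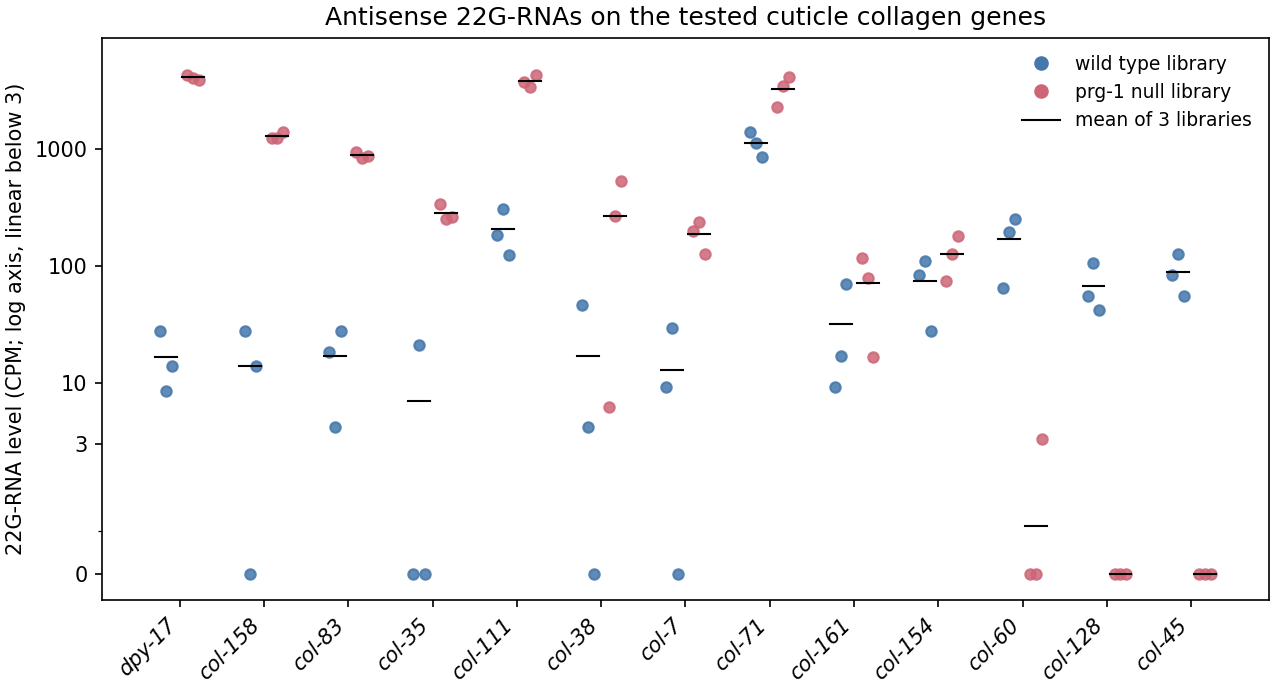
22G-RNA level (CPM, log axis that is linear below 3) of the 13 tested collagens, with 1 point per library and a line at the mean of 3 libraries. Wild type points lie below every prg-1 null point for dpy-17, col-158, col-83, col-35, col-111, col-7 and col-71, and above every one for col-60, col-128 and col-45.

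DPY-17 is a cuticle collagen whose loss makes animals short and fat, and it acts with SQT-3 and the protease DPY-31. The dpy-17 gene (WBGene00001076, WBcel235 III:5107330-5108492, plus strand, 2 exons) had 3, 2 and 1 22G reads across the wild type libraries, and 694, 1090 and 1177 across those of prg-1 null. Its wild type reads were almost absent, and its prg-1 null level varied little between libraries. The level rose from 16.8 ± 10 CPM to 4117 ± 197 CPM, a log2 fold change of 8.04 ± 0.49 (SE; edgeR adjusted p = 1.3e-11). Per kb of transcript it was the highest of all collagens in prg-1 null, at 3689 CPM per kb.

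The other 12 shape-named collagens were nearly bare of 22G-RNAs, and none of them could be tested. The strut collagen gene bli-1, the furrow collagen genes dpy-7, dpy-8 and dpy-10, and also dpy-13 and rol-6 had 0 reads in all 6 libraries. Among the rest, sqt-3 had 0, 0 and 1 reads in wild type against 2, 1 and 2 in prg-1 null. The first wild type library held all 3 reads of sqt-1 and both reads of dpy-2. In prg-1 null, bli-2 had 2 reads in the third library, sqt-2 had 1 read there, and dpy-3 had 1 read in the first. A count of 0 over 3 libraries allows up to 7.26 CPM in wild type against 4.13 CPM in prg-1 null, for counting error only. The product of sqt-3 is a partner of DPY-17 in the cuticle, yet its mean 22G level in prg-1 null was 7.63 CPM, while that of dpy-17 was the highest mean of all collagens there.

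Both col-158 and col-83 had a handful of reads in wild type and over 100 in each prg-1 null library. The col-158 gene (WBGene00000731, V:11829582-11831219, plus strand, 3 exons) had 3, 0 and 1 reads in wild type against 199, 331 and 421 in prg-1 null. Its level rose from 14 ± 14 to 1296 ± 93.6 CPM, a log2 fold change of 6.86 ± 0.68 (SE; edgeR adjusted p = 1.5e-08). With so few wild type reads the size of that change depends on single libraries, at 8.31 without the first wild type library and 5.84 without the second. The col-83 gene (WBGene00000658, II:11044074-11045972, minus strand, 5 exons) had 2, 1 and 2 reads in wild type against 154, 222 and 263 in prg-1 null. Its rise, from 17 ± 12 to 890.6 ± 62.6 CPM, had a log2 fold change of 6.02 ± 0.64 (SE; edgeR adjusted p = 4.2e-08), and of 5.27 without the second wild type library. Both genes were separated between genotypes in every library. The gene F33A8.4 overlaps col-83 on the same strand, and reads common to both cannot be assigned to one of them.

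The col-35 gene (WBGene00000612, I:7385907-7386935, minus strand, 1 exon) had 0, 5 and 0 reads in wild type against 55, 68 and 79 in prg-1 null. That is 7.11 ± 12.3 against 287 ± 47.9 CPM, a log2 fold change of 4.62 ± 0.75 (SE; edgeR adjusted p = 1.8e-05). All its wild type reads were in the second library. Without that library the fitted log2 fold change was 8.70, which depends on the prior count of the fit and gives no size. The col-7 gene (WBGene00000596, I:7401132-7402761, plus strand) had 1, 7 and 0 reads in wild type against 32, 63 and 38 in prg-1 null. It rose from 13.1 ± 15.3 to 188 ± 56.1 CPM, by 3.39 ± 0.76 in log2 units (SE; edgeR adjusted p = 0.00066), and by 4.93 without the second wild type library. In both genes each prg-1 null library lay above each wild type library.

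The col-38 gene (WBGene00000615, II:8568035-8569088, minus strand) rose less evenly. It had 5, 1 and 0 reads in wild type against 1, 71 and 162 in prg-1 null. The first prg-1 null library thus lay among the wild type libraries, and the SD in prg-1 null was about as large as the mean, at 271 ± 267 CPM against 17 ± 25.8 CPM in wild type. The log2 fold change was 4.09 ± 1.05 (SE; edgeR adjusted p = 0.0022). It was 6.21 without the first wild type library and 4.67 without the first prg-1 null library. Without the second wild type library it was 3.36 and no longer passed the test (edgeR adjusted p = 0.0949), and without the second or the third prg-1 null library the gene fell under the count filter.

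Already in wild type, col-71 and col-111 had the highest mean 22G levels of all collagens, though col-60 overlapped with col-111. The col-71 gene (WBGene00000647, II:3500077-3502570, minus strand, 3 exons) had 152, 267 and 61 reads in wild type against 372, 920 and 1244 in prg-1 null. Its libraries did not overlap on the CPM scale, and the rise was the smallest of the 8, from 1137 ± 281 to 3310 ± 927 CPM. Its log2 fold change was 1.54 ± 0.33 (SE; edgeR adjusted p = 0.00038). The col-111 gene (WBGene00000685, IV:4655791-4657974, minus strand, 3 exons) had 20, 72 and 9 reads in wild type against 603, 909 and 1302 in prg-1 null. It rose from 207 ± 92.3 to 3840 ± 467 CPM, by 4.14 ± 0.38 in log2 units (SE; edgeR adjusted p = 4.5e-09). Per kb of transcript, col-71 stood at 954 and col-111 at 165 CPM per kb in wild type, and they reached 2779 and 3074 in prg-1 null. These last 2 levels and that of dpy-17 lie close together, while col-158 and col-83 followed at 1066 and 856 CPM per kb.

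The 3 genes that fell were, in prg-1 null, at or near 0. The col-60 gene (WBGene00000636, I:7105302-7106926, plus strand, 3 exons) had 7, 46 and 18 reads in wild type against 0, 0 and 1 in prg-1 null, or 171 ± 95.9 CPM against 1 read in all. The ratio of the pooled levels, wild type over prg-1 null, was 125, with an exact 95% counting interval from 21.7 to 4998. Its fitted log2 fold change was -6.41 ± 1.02 (SE; edgeR adjusted p = 1.4e-05), and it was -7.95 when leaving out the third prg-1 null library, which held that 1 read. The value of -7.95 has no prg-1 null read behind it, so it depends on the prior count of the fit and gives no size. The col-45 gene (WBGene00000622, I:115687-117498, plus strand, 4 exons) had 9, 30 and 4 reads in wild type, or 89.3 ± 36.3 CPM, and none in prg-1 null. It was 21.6-fold lower in prg-1 null when that group was set at the level of 3 counts over the 3 libraries (edgeR adjusted p = 7.9e-05). The exact 95% lower limit of the pooled ratio was 19.6. The col-128 gene (WBGene00000702, IV:11550002-11551960, minus strand, 5 exons) had 6, 25 and 3 reads, or 68.2 ± 34 CPM, and none in prg-1 null. By the same floor it was 16.5-fold lower (edgeR adjusted p = 0.00019), with a lower limit of 15.3 for the pooled ratio. Without the second wild type library, which held most reads of each of the 3 genes, col-45 and col-128 fell under the count filter and col-60 alone was called lower.

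For the remaining tested genes the genotypes overlapped. The col-154 gene (WBGene00000727, V:11385360-11386529, plus strand) had 9, 26 and 2 reads in wild type against 12, 34 and 54 in prg-1 null, or 74.3 ± 42.3 against 128 ± 52.7 CPM (log2 0.70 ± 0.63, SE; edgeR adjusted p = 0.41). The col-161 gene (WBGene00000734, V:13317029-13318011, minus strand) had 1, 4 and 5 reads in wild type against 19, 21 and 5 in prg-1 null, or 32.1 ± 33 against 71.3 ± 51.2 CPM (log2 1.31 ± 0.91, SE; edgeR adjusted p = 0.27). The spread between libraries was as large as the difference in both genes.

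**Figure D2:**
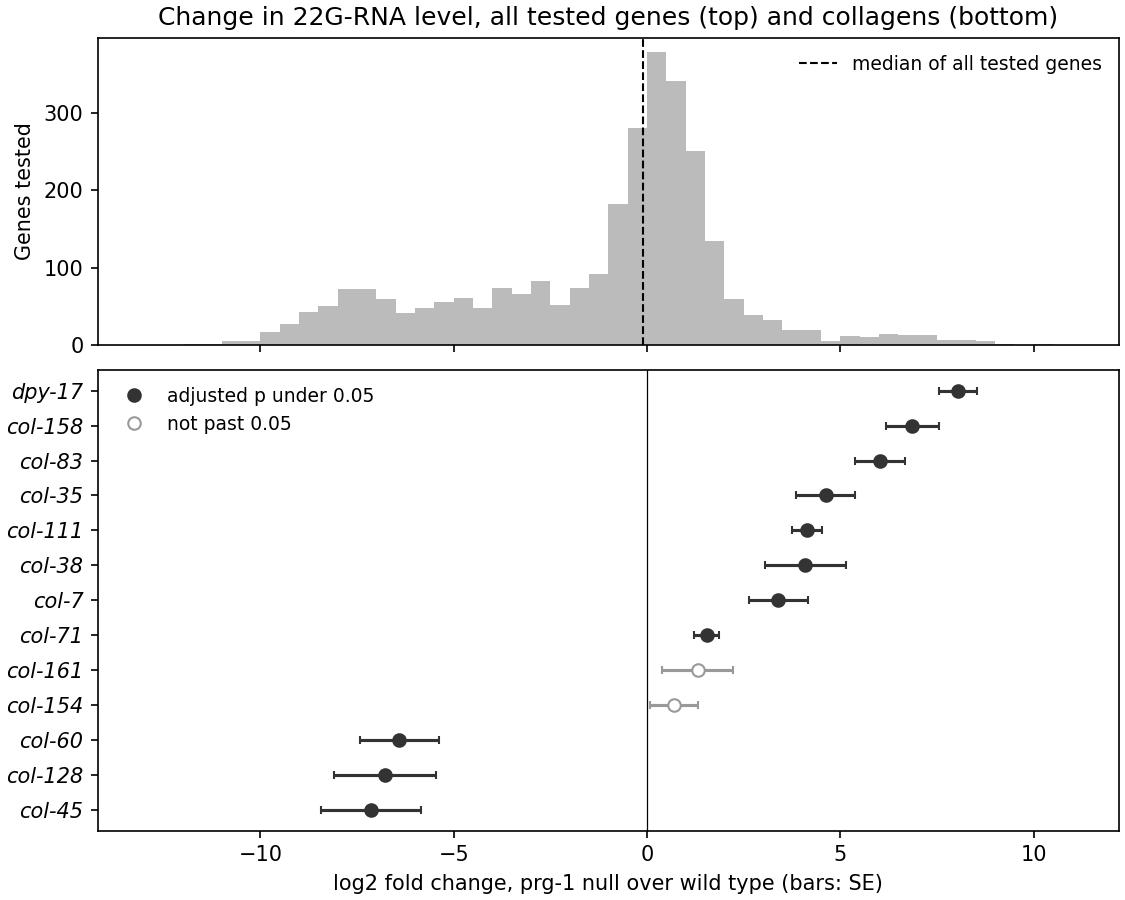
Log2 fold change of the 22G-RNA level, prg-1 null over wild type, as a histogram of the 2879 tested genes (top; dashed line at their median of -0.11) and for the 13 tested collagens with SE bars (bottom). Filled points passed an edgeR adjusted p of 0.05, namely 8 to the right of 0 and 3 to the left; the fitted values of col-128 and col-45, which had no read in prg-1 null, depend on the prior count of the fit and give no size.

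A further 20 collagens had at least 10 reads but fell under the count filter. Several of them had few or no reads in wild type. The col-50 gene had 0, 1 and 0 reads there and 23, 28 and 15 in prg-1 null, a ratio of pooled levels of 37.5 with an exact 95% interval from 6.51 to 1505. The col-10 gene had 1, 0 and 0 against 9, 34 and 10 reads (ratio 30.2, interval 5.18 to 1213). No wild type read was found on col-116, against 7, 25 and 19 in prg-1 null. That was 9.23-fold above the wild type floor of 3 counts, with an exact 95% lower limit of 7.58 for the pooled ratio. The gene F17E9.2 overlaps col-116 on the same strand, and reads common to both cannot be assigned to one of them. On col-19, a collagen gene switched on at the adult stage, there was also no wild type read, against 4, 9 and 16. That was 5.15-fold above the floor, with a lower limit of 4.19. On col-162, 1, 6 and 1 reads stood against 22, 36 and 11 (ratio 4.91, interval 2.36 to 11.8). In the other direction, col-87 had 10, 15 and 1 reads in wild type and none in prg-1 null. By the floor of 3 counts it was 13.8-fold lower, and the exact 95% lower limit of the pooled ratio was smaller than that. These 6 genes were picked out after their values were seen, and the intervals cover counting error within the pooled libraries, not the spread between them.

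For others in that group the pooled ratio was near 1. The col-85 gene had 0, 16 and 0 reads in wild type against 8, 9 and 12 in prg-1 null (ratio 1.03, interval 0.542 to 2.03), so its wild type level rests on the second library alone, and col-12 had 12, 5 and 2 against 0, 16 and 14 (ratio 0.898, interval 0.489 to 1.69). Both were chosen after their values were seen. Over the family, 53 collagens (31.2%) had a 22G read in wild type, against 51.1% of all protein-coding genes. In prg-1 null the numbers were 69 (40.6%) and 47.4%. At least 5 reads in prg-1 null and none in wild type were found for 11 collagens (6.47%; all genes 3.20%), and the reverse for 8 (4.71%; all genes 5.04%). The prg-1 null libraries hold more 22G reads in sum, which bears on such counts.

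Summed over all 170 genes, the collagens had 282, 613 and 130 22G reads in wild type against 2303, 4004 and 4996 in prg-1 null. Their share of all 22G reads on protein-coding genes was 0.251%, 0.202% and 0.188% in wild type, against 1.33%, 1.39% and 1.34% in prg-1 null. The share was steady within a genotype and higher in every prg-1 null library. Most of it came from dpy-17, col-111, col-71, col-158 and col-83, the 5 genes with the most reads summed over the 6 libraries. Together they held 55.8% to 63.8% of the collagen reads in wild type, against 86.7% to 88.2% in prg-1 null. Of the summed reads, 11303 were in prg-1 null and 1025 in wild type, so the ranking favours genes high in prg-1 null. Wild type had 71 reads on col-60, against 6 on dpy-17, 4 on col-158 and 5 on col-83. In wild type, col-71 alone held 43.6% to 53.9%, and in prg-1 null 16.2% to 24.9%. The share of dpy-17 was 0.326% to 1.06% in wild type, against 23.6% to 30.1% in prg-1 null. The other 165 genes together had 98.4, 172 and 89.3 reads per 1000000 genome-aligned reads in wild type against 331, 382 and 327 in prg-1 null. This scale differs from the shares above. It also moved the median log2 fold change of all tested genes from -0.11 to 0.44, so the size of the difference depends on the scale.

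**Figure D3:**
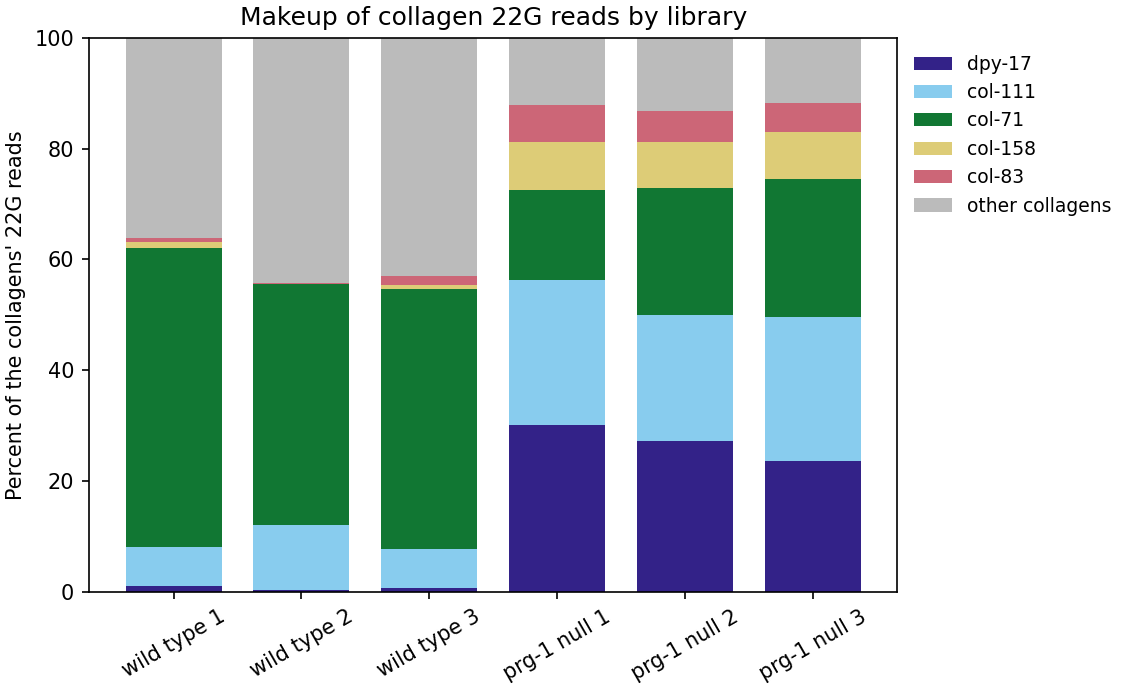
Percent of each library's collagen 22G reads held by the 5 genes with the most reads and by the other 165 (stacked bars, 1 per library). The 5 were ranked by reads summed over the 6 libraries, most of which came from prg-1 null. In wild type col-71 holds 43.6% to 53.9%; in prg-1 null dpy-17, col-111 and col-71 hold most of the reads and the other 165 genes 11.8% to 13.3%.

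On 5 of the 8 genes that rose, 22 nt was the most common length. With the prg-1 null libraries pooled, reads of 22 nt made up 80.9% of the 22G reads on col-111, 74.8% on col-35, 70.9% on col-158, 69.9% on dpy-17 and 59.8% on col-83, against 61.0% over all protein-coding genes. On the other 3, reads of 21 nt were the largest class, at 56.8% against 36.7% of 22 nt on col-71, 55.6% against 39.8% on col-7 and 47.4% against 45.3% on col-38. On col-71 another 722 antisense reads starting with G were 20 nt long, outside the counted class. Wild type reads on col-71 were also short, at 48.8% of 21 nt and 47.1% of 22 nt.

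The first base was G in most antisense reads of 21 to 23 nt on these genes. The share in prg-1 null was 100% on col-35, 95.7% on col-7, 93.7% on col-71, 86.3% on col-111, 84.96% on dpy-17, 83.7% on col-158 and 83.3% on col-83, against 76.9% over all protein-coding genes. It was lower on col-38, at 65.4%. On col-161 only 43.7% of such reads started with G and 47.6% with A. That gene is 1 of the 2 tested collagens whose 22G level did not pass the test.

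**Figure D4:**
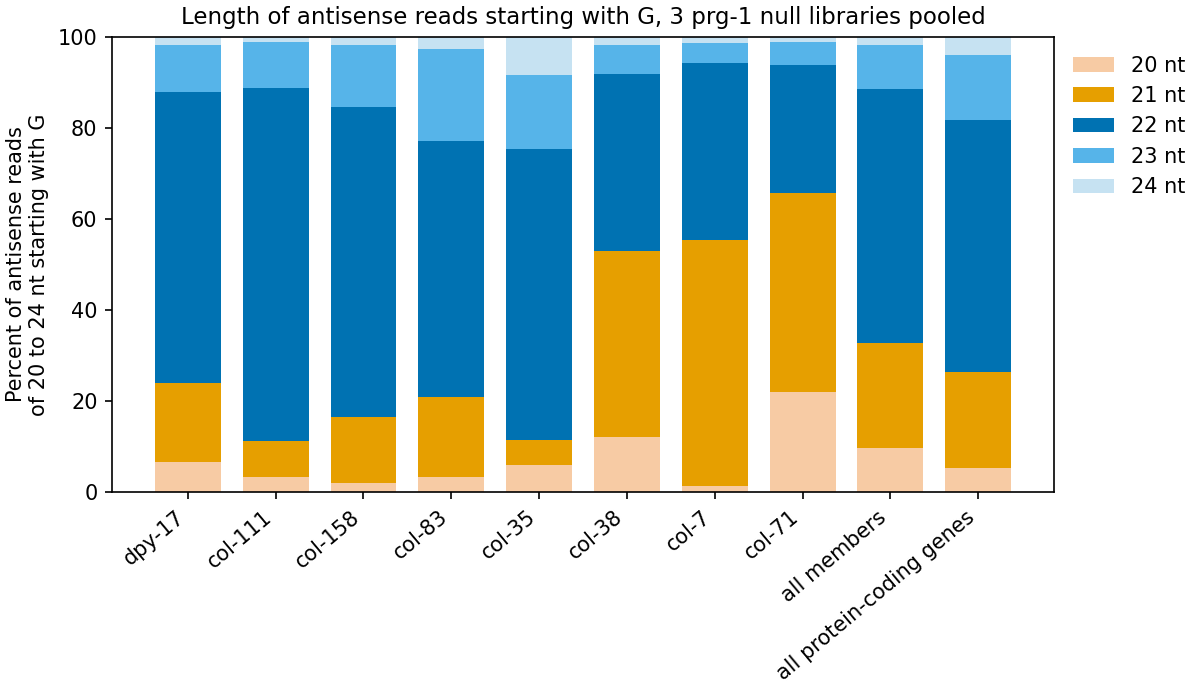
Length of antisense reads (20 to 24 nt, first base G) in the pooled prg-1 null libraries, as stacked percentages for the 8 collagens that rose, for all 170 collagens (all members) and for all protein-coding genes. Reads of 22 nt form the largest class on dpy-17, col-111, col-158, col-83 and col-35, and reads of 21 nt on col-7, col-71 and col-38.

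The furrow collagen gene dpy-2 carried the most antisense reads of any collagen, but only 2 were 22G-RNAs. It had 1780, 2003 and 674 antisense reads in wild type against 2406, 3045 and 2711 in prg-1 null. Of these 12619 reads, 4416 were 24 nt long and started with T, and 3982 were 25 nt long and started with C. Per 1000000 genome-aligned reads the level was 1355 ± 328 in wild type against 2175 ± 663 in prg-1 null (SD, n = 3; two-sided exact permutation p = 0.2, where the smallest possible is 0.1). No gene is annotated on the strand opposite to dpy-2 (II:6714292-6715971, plus strand).

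Such reads were also found on col-153 (V:10949811-10951821, plus strand), opposite to which the annotation has the antisense RNA gene anr-43. It had 621, 523 and 193 antisense reads in wild type against 337, 410 and 272 in prg-1 null, of which 1541 of 2356 were 26 nt long and started with C. The level was 413 ± 161 and 281 ± 123 per 1000000 (SD, n = 3; two-sided exact permutation p = 0.4). Another gene, col-39, had antisense reads with a length of 26 nt and a first G, the form of 26G-RNAs, which are primary siRNAs of this species. It had 23, 28 and 7 antisense reads in wild type against 10, 13 and 2 in prg-1 null, 59 of the 83 of that form, or 17.05 ± 5.55 and 7.41 ± 5.59 per 1000000 (SD, n = 3; two-sided exact permutation p = 0.2). In all 3 genes the genotypes overlapped, and 3 against 3 libraries cannot reach a p of 0.05 in this test. They were picked out after their reads were seen.

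Antisense reads of a gene are also sense reads of whatever lies on its other strand. Of the 13 tested collagens, 8 share no exon base with an annotated gene on the opposite strand, dpy-17, col-83 and col-7 among them. The col-35 gene shares 515 of its 1029 exon bases (50.05%) with the coding gene C15A11.2. Sense reads of the same lengths and first base on C15A11.2 numbered 0 in 5 libraries and 2 in the third prg-1 null library, against 79 on col-35 there. The shared stretch was 60 bases for col-111 and psr-1, with no such read, and 23 bases for col-158 and nphp-4, with 1 read in the first wild type library. Annotated non-coding RNA genes lie opposite to parts of col-71 (105 bases), col-128 (219 bases) and col-158 (149 bases). Their own reads were not analysed here.

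Genes that make, modify and shape the cuticle were set beside the collagens. Of 24 measured genes for collagen modification and processing, 6 were tested, none rose (12.4% of all tested genes) and 3 fell (32.6%). One was dpy-31, which encodes the astacin protease that trims SQT-3. Its 22G reads numbered 55, 176 and 39 in wild type and 0 in all prg-1 null libraries. From 603 ± 129 CPM its level was 146-fold lower when set at the floor of 3 counts (edgeR adjusted p = 1.2e-08). This is opposite in direction to the rise on dpy-17, a collagen that acts in the same process. The others were nas-36, an astacin protease needed for moulting, and bli-3, a dual oxidase that cross-links collagen. On nas-36, 26, 86 and 21 reads stood against 0, 0 and 1 (edgeR adjusted p = 2.2e-07). Its pooled ratio of wild type over prg-1 null was 234, with an exact 95% interval from 41.2 to 9302. On bli-3, 12, 16 and 13 reads stood against 0, or 29.2-fold lower by the same floor (edgeR adjusted p = 4.3e-05). The median log2 fold change of the 6 was -3.46, or -2.27 with dpy-31 and bli-3 at their bounds, against -0.11 for all tested genes.

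Of 21 epidermal and moulting regulators, 4 were tested, none rose (12.4% of all tested genes) and 1 fell (32.6%), the leucine-rich repeat gene pan-1. It had 98, 381 and 90 reads in wild type against 1, 3 and 0 in prg-1 null, or 1266 ± 356 against 5.84 ± 5.66 CPM (log2 -7.67 ± 0.66, SE; edgeR adjusted p = 1.9e-09). The median log2 fold change of the 4 was -0.02. Among 8 measured cuticle collagens outside the naming rule only bli-6 could be tested, with 4, 8 and 0 reads in wild type against 14, 16 and 26 in prg-1 null (log2 1.52 ± 0.81, SE; edgeR adjusted p = 0.14). The other 7, among them dpy-5, rol-8 and lon-3, had no 22G read. None of 4 basement membrane and other collagens and none of 41 cuticlins and related matrix proteins had enough 22G reads to test.

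Sense reads, which run in the direction of the transcript, were the second readout. They were few on collagens, with 211, 257 and 245 reads in wild type against 156, 751 and 259 in prg-1 null over all 170 genes. Their median length was 22 to 26 nt, and transcript levels were not measured. The median log2 fold change of all 713 tested genes was -0.16, and it was -0.38 with library-size scaling and -0.33 with genome-aligned scaling. Only 2 collagens could be tested, and edgeR called neither, beside 11.6% of 713 tested genes that rose and 13.9% that fell; 1 had an unadjusted p under 0.05 (38.7% of all tested genes), and DESeq2 and limma-voom each called 1 lower. That gene was col-111, with 13, 20 and 11 sense reads in wild type against 0, 0 and 8 in prg-1 null. The level was 43.7 ± 3.28 against 5.65 ± 9.79 CPM (log2 -2.70 ± 1.00, SE; edgeR adjusted p = 0.0553), and the libraries did not overlap, as for 43.1% of all tested genes. DESeq2 gave an adjusted p of 0.0316 and limma-voom one of 0.0143. Without the second prg-1 null library the log2 fold change was -1.79 (edgeR adjusted p = 0.32), without the first -2.05 (edgeR adjusted p = 0.23), and without the third, which held all 8 prg-1 null reads, -6.79 (edgeR adjusted p = 0.017). The value of -6.79 has no prg-1 null read behind it, so it depends on the prior count of the fit and gives no size.

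The other tested gene, col-46, had the most sense reads per kb, with 42, 30 and 137 reads in wild type against 17, 61 and 10 in prg-1 null. The genotypes overlapped, at 246 ± 253 against 80.8 ± 68.8 CPM (log2 -1.60 ± 0.88, SE; edgeR adjusted p = 0.194). More of its reads were in the third wild type library than in any other, and without that library the log2 fold change was -0.08. Without the third prg-1 null library it was -0.98, and without the second -2.28. The next genes by sense reads per kb leaned on the second prg-1 null library, at 56 of 86 reads for col-140, 43 of 70 for col-2, 41 of 63 for col-8, 44 of 51 for col-181 and 35 of 46 for col-119. On col-178, wild type had 4, 14 and 4 reads and prg-1 null 3, 27 and 12. On col-131 the order was 16, 19 and 1 against 3, 10 and 1.

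That library held over 50% of the sense reads of 15 of the 28 collagens with at least 20 such reads. Among all 2437 genes with at least 20 sense reads it did so for 76 (3.12%), and no other library did so for any collagen. At least 5 sense reads in prg-1 null and none in wild type were found for 17 collagens (10%; all genes 2.90%), a count to which the same library contributes, and the reverse for 3 (1.76%; all genes 4.34%). Of the 20 collagens with the most sense reads per kb, 16 had under 10 22G reads, much like the whole family, in which 33 of 170 had at least 10. Among the genes that rose in 22G-RNAs, col-158 had no sense read, col-83 had 2, and dpy-17 had 3, 0 and 0 in wild type against 3, 2 and 0 in prg-1 null.

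**Figure D5:**
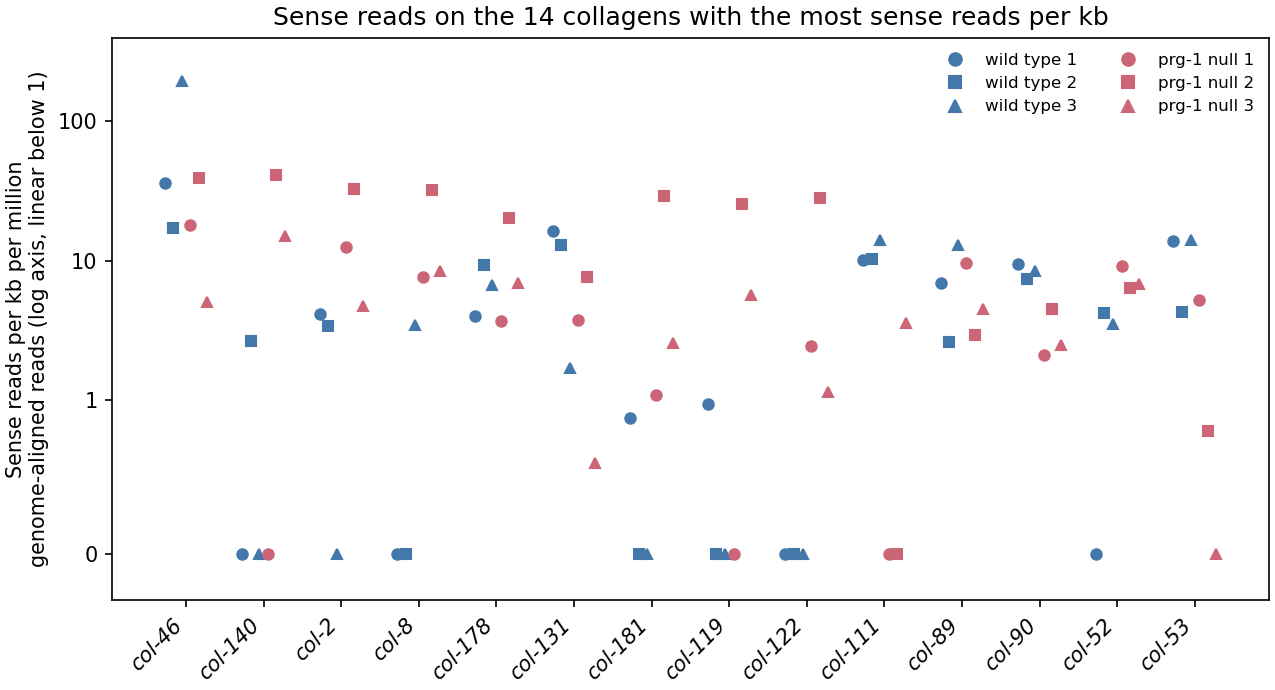
Sense reads per kb per 1000000 genome-aligned reads (log axis that is linear below 1) on the 14 collagens with the most sense reads per kb, with 1 symbol per library. The square of the second prg-1 null library is the highest point for col-140, col-2, col-8, col-178, col-181, col-119 and col-122, and the triangle of the third wild type library for col-46.

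Sense reads of marker genes for other tissues are given beside these values. Reads of the 31 major sperm protein genes, markers of sperm, were summed per 1000000 genome-aligned reads. They came to 2230, 811 and 904 in wild type against 228, 196 and 256 in prg-1 null, with 3 genes at 0. Of 13 tested, 8 fell (13.9% of all tested genes) and none rose (11.6%). Their median log2 fold change was -2.12, against -0.16 for all tested genes. Reads of 7 muscle markers ranged from 66.8 to 368 per 1000000 in wild type, against 62.4 to 206 in prg-1 null, with none at 0, and were highest in the third wild type and the second prg-1 null library of their groups. Reads of 6 intestine markers ranged from 1.27 to 14.5 and from 4.71 to 15.8, with none at 0, those of 7 neuron markers from 8.68 to 14.4 and from 14.1 to 16.7, with 1 at 0, and those of 6 yolk genes, which males do not express, from 4.78 to 9.64 and from 1.11 to 5.03, with 1 at 0. The part of these markers in the collagen values was not tested.

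Of all 713 genes tested for sense reads, 11.6% rose and 13.9% fell. Among sense reads of the other cuticle genes, 2 of 3 tested processing genes fell. The protease inhibitor gene mlt-11 had 12, 57 and 13 sense reads in wild type and none in prg-1 null. That was 27.8-fold lower by the floor of 3 counts (edgeR adjusted p = 0.00070). The astacin gene nas-37 had 47, 6 and 570 against 12, 15 and 11 (edgeR adjusted p = 0.0125), where the genotypes overlap and the call was lost without the third wild type library (which held most of the reads), without the third prg-1 null library, with limma-voom and with the replicate block. Of the other collagens, mec-5, a collagen around touch neurons, fell with 47, 95 and 14 reads in wild type against 0, 0 and 5 in prg-1 null (log2 -5.01 ± 1.07, SE; edgeR adjusted p = 0.0023). Of 3 tested epidermal regulators, the receptor gene daf-4 rose with 5, 12 and 1 against 14, 35 and 61 reads (log2 2.43 ± 0.81, SE; edgeR adjusted p = 0.0355), a call kept under 9 of 15 alternatives and lost under library-size scaling, without the count filter, with the replicate block, and without the first wild type, the third wild type or the third prg-1 null library. None of 3 tested cuticlin genes passed the test. Median log2 fold changes were -4.47 for the processing genes, 0.56 for the regulators and 0.05 for the cuticlins (3 tested genes each).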

How the data were processed

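The authors deposited expected counts, as named here (whole numbers of reads per annotated transcript, sense and antisense, listed by length and first base). Rounding therefore changed nothing. That name is not the authors' own and does not say how a read with several matches was counted. Per the file headers, reads were set against WBcel235 transcripts and the ce11 genome, and per the submitters' processing notes FastQC 0.12.0 and cutadapt 3.7 were used. The aligner, and how it treated a read with several matches, is not given in the sources used; collagens resemble each other, so values of close relatives are uncertain to that extent. Other deposited columns list read lengths and first bases.

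Each gene was represented by its richest isoform. edgeR 4.0.16 (R 4.3.3; quasi-likelihood test, filterByExpr, TMM, genotype as the only term) was fitted on all protein-coding genes, with Benjamini-Hochberg adjustment and a threshold of 0.05. Floors are 3 counts over the 3 libraries of a group, and intervals are exact 95% intervals. Both cover counting error only, and a fold against a floor leaves out counting error in the group with reads. Values per 1000000 genome-aligned reads leave out reads on the transcripts of rbd-1 and daf-15, the 2 dominant features. The script was tested on simulated data. Alternatives used DESeq2 1.42.0, limma 3.58.1 (voom), other scalings, filters, read classes and left-out libraries. Gene positions and exons came from Ensembl release 115 (WBcel235). Figures used matplotlib 3.10.9.

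The text names each tested collagen, each of the 13 shape-named genes, the 8 with the most sense reads per kb, and up to 3 genes per other list and direction that passed. The members, lists and this rule were chosen with earlier results of these data known. The listed genes ram-4 and bli-7 were not matched and not analysed here.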

Additional observations from a re-analysis of the deposited data

Results flagged for a closer look

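Apart from dpy-2, col-153 and col-39, antisense reads outside the 22G class (other lengths or first bases) were not tested on their own. On 10 collagens (5.88%; 2.85% of all protein-coding genes) every prg-1 null library held at least 10 of them and lay above every wild type library. The reverse held for 0 collagens and 1.81% of all protein-coding genes. Per 1000000 genome-aligned reads, the mean in prg-1 null was 238 on col-71 (wild type 45.1), 237 on dpy-17 (2.13), 196 on col-111 (4.25), 67.0 on col-158 (1.70) and 54.3 on col-83 (0.424). These 5 genes are also those with the most 22G reads. The mean was 20.0 on col-161 (7.34), 18.1 on col-19 (1.38), 12.8 on col-154 (1.60), 9.67 on col-35 (1.70) and 9.12 on col-162 (1.38). For col-161 and col-154, whose 22G levels overlapped between genotypes, these reads did not overlap, as the rule for listing the 10 genes required. Differences in such reads were tested only with all antisense reads in 1 class. In that fit neither col-154 (log2 1.40, edgeR adjusted p = 0.0594) nor col-161 (log2 1.19, edgeR adjusted p = 0.147) passed.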

How the results depend on the processing

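The 13 collagens tested for 22G-RNAs and the 2 tested for sense reads were refitted under up to 16 alternatives. A gene that fell under the count filter of an alternative has no value there and is not counted below. For 22G-RNAs, col-128 had 10 refitted values, col-38 had 12 and col-45 had 13, the fewest of the tested collagens. Of 191 refitted 22G values, 188 kept direction and call, none reversed, and 3 lost the call, all of col-38 (DESeq2, limma-voom and one left-out library; highest adjusted p 0.0949). The count of collagens that rose was 6 to 12 over all alternatives and 7 to 12 with a library left out. The count that fell was 1 to 4 with a library left out, 1 when a mean of at least 10 counts was required and 0 with 22-nt reads alone; in these the missing genes were not tested, as too few reads were left. Without the count filter, col-10, col-19, col-50 and col-116 were also called higher and col-87 lower.

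Of sense reads, none rose with edgeR as designed, 4 did without the count filter, 1 with a mean of at least 10 counts, and 0 to 1 with a library left out. The count that fell, 0 as designed, was 1 with DESeq2, limma-voom, genome-aligned scaling, the replicate block, or reads of 18 to 30 nt without 21-nt reads starting with T, and 0 to 1 with a library left out. The gene was col-111 each time, and its log2 fold change ranged from -6.79 to -1.79 over all alternatives. The -6.79 end came from a fit with no prg-1 null read on the gene and gives no size. Same-numbered deviations correlated at -0.04, 0.05 and 0.01 for 22G-RNAs, and at 0.01, -0.09 and -0.27 for sense reads. Different-numbered sense deviations reached 0.35, for wild type replicate 2 with prg-1 null replicate 3. The labels state no pairing, and with so few libraries these correlations cannot decide whether the libraries were paired. With the replicate block 8 collagens rose and 3 fell in 22G-RNAs, the same 11 genes. The sense log2 fold change of col-46 ranged from -2.28 to -0.08 with a library left out.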
